A study of Mus musculus with 6 samples.

Results

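The tripartite motif (TRIM) genes encode proteins built from a RING domain, 1 or more B-box domains and a coiled coil, and most of them act as E3 ubiquitin ligases. Described here are 36 mouse TRIM genes, among them Trim59, in B16 melanoma cells with and without the interferon gamma receptor chain encoded by Ifngr1. They were taken by symbol from the 55335 genes counted in each library, through the Ensembl identifiers of GENCODE release M21, and all 36 were found. The set holds 7 TRIM genes classed here as interferon-inducible, Trim59 and other members of the family. Not every interferon-responsive TRIM gene is in it, and Pml is one that lies outside. The set was chosen by the fold changes and calls of IFNγR1KO against scrambled control in these same libraries. These results were known when the set was put together. The values of the 36 genes are therefore given as a description, without p-values, and their counts support nothing by themselves. Another 36 genes of the family, namely the remaining genes named Trim with a number, Mid1, Mid2 and Pml, are set beside them.

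B16-BL6 is a pigmented mouse melanoma line from the C57BL/6 strain. The scrambled control cells, which the labels call wild type (WT), carried a lentiviral Cas9 vector with a guide against GFP, a gene that mouse cells lack. The IFNγR1KO cells carried the same vector with a guide against Ifngr1, were selected with puromycin as the control was, and were grown out as single-cell clones. The labels do not say whether the 3 knockout cultures are of 1 clone, so that a feature of a clone and an effect of the missing receptor cannot be told apart. Both groups were sequenced as 3 cultures seeded overnight, replicates 1, 2 and 3 of scrambled control and replicates 10, 11 and 12 of IFNγR1KO, and no interferon was added to either. P-values thus measure the spread between these cultures.

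The TRIM proteins are sorted into classes by the domain at their C-terminal end. Several TRIM genes with a PRY-SPRY domain are switched on by interferon, and their proteins act in antiviral sensing, either by tagging viral components or by attaching ubiquitin to the sensors RIG-I and MDA5 and their adaptors. Other classes sit in chromatin, on microtubules or in the membrane of the endoplasmic reticulum and are known mainly for other roles. Short promoter elements carry this response, among them the interferon-stimulated response element (ISRE), which IRF proteins bind, and the gamma-activated site (GAS) of the response to interferon gamma.

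The promoters of the 36 genes were searched for both elements, since these are the letters through which interferon is known to act on its target genes. Sequences were those of RefSeq on GRCm38.p6, 250 bases before to 50 bases after each listed transcription start, and 26 of the 36 genes had one. The ISRE core was searched on both strands as GAAA, 2 bases of any kind and GAAA again, and it stood in the promoters of 3.99% of 27025 genes. Of the 26 TRIM genes, 5 held it, namely Trim21, Trim26, Trim30a, Trim34a and Trim2. The lines below show 30 bases around the match in each, read along the strand of the gene, to show that the 5 matches differ in number, orientation and distance from the start. Capitals mark the letters of the match, which is read on the other strand where it begins with TTTC.
Trim21: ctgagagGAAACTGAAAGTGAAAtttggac
Trim26: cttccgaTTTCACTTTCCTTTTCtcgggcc
Trim30a: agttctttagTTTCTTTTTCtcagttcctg
Trim34a: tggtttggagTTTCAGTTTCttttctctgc
Trim2: tcagctttggTTTCCTTTTCtctaagacag

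The windows of Trim21 and Trim26 each hold 2 overlapping matches and the other windows 1. The Trim21 window lies at chr7:102565447-102565476 on the minus strand, with the match at bases 14 to 29 after the start. That of Trim26 lies at chr17:36836979-36837008 on the plus strand, with the match at bases -160 to -145 from the start. The Trim30a window is at chr7:104465210-104465239 on the minus strand, with the match at bases -36 to -27, and the same 30 letters stand before Trim30d, its neighbour, at chr7:104507871-104507900. A further listed start of Trim30a has a match of its own at bases 3 to 12, in the window chr7:104446104-104446133, which is not shown. The windows of Trim34a, at chr7:104244457-104244486 on the plus strand, and of Trim2, at chr3:84212791-84212820 on the minus strand, lie just after a listed start. That start of Trim2 lies inside the annotated gene, which spans bases 84160439 to 84306877, and not at its 5′ end. Among the 30 other TRIM genes with a promoter, Trim5, Trim12a, Trim12c and Trim30d held the core. The GAS letters, TTCNNNGAA, stood in the promoters of 9.55% of genes and of 2 of the 26 TRIM genes, Trim45 and Trim46. A match of letters is a description and not a bound site, and no match says only that these letters are missing from the window.

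Trim59 was the member with the largest difference, and its promoter held neither set of letters. The 237 bases before its annotated start, chr3:69044756-69044992 on the minus strand, are shown because they are the stretch next to that start which was searched. Their GC content was 76.4% with 35 CpG dinucleotides. Capitals mark its single CCAAT box, found on the other strand as ATTGG. The 5 letters are common, since 37.4% of 32851 promoters held them on either strand.
Trim59: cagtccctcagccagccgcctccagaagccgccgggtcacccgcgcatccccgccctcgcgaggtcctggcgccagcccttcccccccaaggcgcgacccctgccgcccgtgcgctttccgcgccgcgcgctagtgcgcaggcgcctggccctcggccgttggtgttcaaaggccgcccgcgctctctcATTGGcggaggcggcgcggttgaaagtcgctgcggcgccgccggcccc

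The libraries held 9402640 to 10579788 counts on genes in scrambled control and 6698956 to 7409479 in IFNγR1KO, so that 1 count was worth 0.0966 to 0.109 and 0.135 to 0.142 CPM, respectively. CPM values are counts brought to one library total shared by all libraries, corrected for composition by edgeR's TMM method. After edgeR's filter on low counts 13642 genes were tested, and a gene was called where its Benjamini-Hochberg adjusted p was under 0.05. The 8 melanocyte markers summed to 31877 to 34821 CPM in scrambled control and 28039 to 32952 CPM in IFNγR1KO, with none called, while the leukocyte, endothelial and epithelial markers summed to at most 1.42 CPM in any library, with 3 of 5 leukocyte and 2 of 3 endothelial markers at 0 in all 6. Ifngr1 itself had 154, 144 and 172 counts in scrambled control and 80, 85 and 82 in IFNγR1KO (log2 fold change -0.47, SE 0.16, adjusted p = 0.0729). Its transcript was lower without overlap and was still counted in every knockout library.

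Of the 36 TRIM genes 31 passed the filter, and Trim6, Trim9, Trim16, Trim34a and Trim36 did not. In IFNγR1KO cells 3 were called higher, Trim46, Trim35 and Trim26, where 7.73% of all tested genes were called higher. The 2 called lower were Trim59 and Trim30a, where 7.62% of all tested genes were called lower. The remaining 26 were not called. Without scrambled control replicate 1, or without IFNγR1KO replicate 12, 5 were called higher, and without the latter 4 were called lower. Over all genes 1054 were called higher and 1039 lower with every library. These became 854 and 843 without scrambled control replicate 1, and 1372 and 1452 without IFNγR1KO replicate 12. The log2 fold change was above 0 for 19 of the 31 genes and below 0 for 12, with a median of 0.12 beside 0.00 for all tested genes, and it ran from -4.44 to 1.82. The 3 libraries of each group did not overlap for 10 genes that were higher and 4 that were lower in IFNγR1KO, against 16% and 16.6% of all tested genes, or 32.6% in either direction. Nothing is read from these counts, because the genes were chosen with this comparison known.

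**Figure D1:**
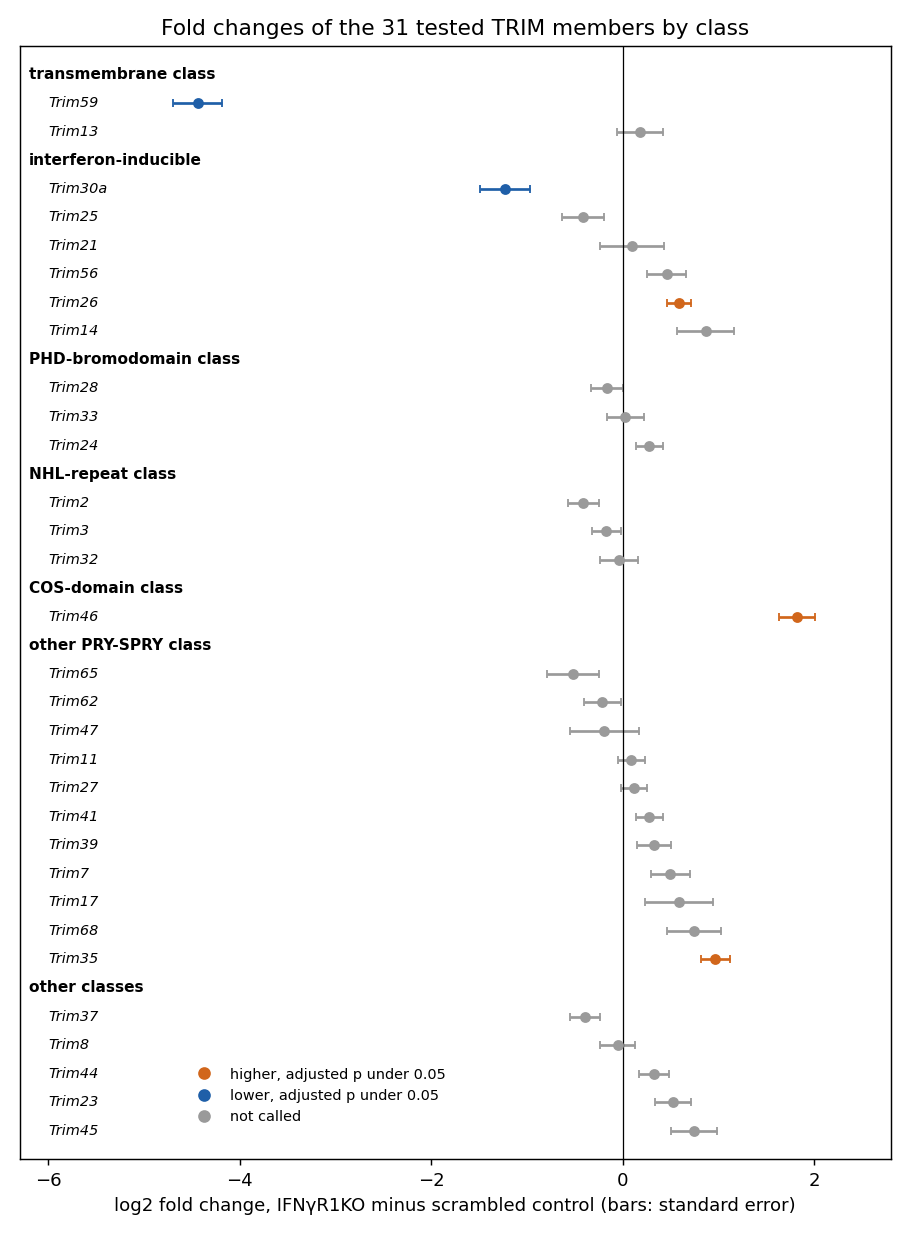
The log2 fold change of each of the 31 tested TRIM genes, IFNγR1KO minus scrambled control, by class, with the standard error of the fit as a bar. Trim59 stands alone at -4.44, Trim30a at -1.23 and Trim46 at 1.82, and the 26 genes in grey lie between -0.52 and 0.87.

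Trim59 encodes an E3 ligase anchored in the membrane of the endoplasmic reticulum and is known for high levels in dividing and tumor cells. The gene (ENSMUSG00000034317.14) spans bases 69035288 to 69044755 of chromosome 3 (GRCm38) and is read from the minus strand. Scrambled control replicates 1, 2 and 3 held 448, 359 and 418 Trim59 counts, and IFNγR1KO replicates 10, 11 and 12 held 17, 17 and 7. These are 48.6, 35.7 and 40.4 CPM against 2.42, 2.30 and 0.984 CPM. Every knockout library was thus far below every control library, and replicate 12 was the lowest.

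The means of Trim59 were 41.6 ± 6.54 CPM (SD, n = 3) and 1.90 ± 0.796 CPM (SD, n = 3), a ratio of 21.9, with a log2 fold change of -4.44 (SE 0.26). It had the 15th lowest fold change among the 13642 tested genes, was called lower whichever of the 6 libraries was left out, and its fold change then ran from -4.64 to -4.13. Because a library pools the RNA of a whole culture, fewer cells with the transcript and less transcript per cell cannot be told apart. No exon of another gene overlaps Trim59. Reads placed at more than 1 site were listed apart and counted to no gene. Some Trim59 reads could be missing for that reason. Of its 50-base stretches 5.62% also occur in other transcripts of the annotation, foremost Gm15381 and Gm4921.

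The genes around Trim59 were read to see whether the region as a whole was lower. Within 500 kb lie 30 other annotated genes, of which 5 were tested, and 0 of the 5 were called by edgeR's quasi-likelihood test. At an unadjusted p under 0.05 there was 1, Smc4, and DESeq2 called 0 of the 8 genes to which it gave an adjusted p. Smc4, a subunit of the condensin complex that compacts chromosomes in mitosis, ends 664 bases from the 3′ end of Trim59 on the other strand. It had 245, 208 and 256 CPM in scrambled control and 189, 194 and 194 CPM in IFNγR1KO. The groups did not overlap, and the log2 fold change was -0.30 (SE 0.14, adjusted p = 0.170).

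On the upstream side the nearest tested gene was Kpna4, a nuclear import receptor of the importin alpha family, 22393 bases before the start of Trim59. Its levels were 165, 127 and 156 CPM against 137, 128 and 132 CPM, with overlap (log2 fold change -0.17, SE 0.14, adjusted p = 0.458). Ift80, an intraflagellar transport gene, lay at -0.03 (SE 0.16, adjusted p = 0.942). Ppm1l, a protein phosphatase gene, lay at 0.16 (SE 0.20, adjusted p = 0.646), and the pseudogene Gm18588 at 0.18 (SE 0.41, adjusted p = 0.820). The 5 tested genes around Trim59 thus ranged from -0.30 to 0.18.

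**Figure D2:**
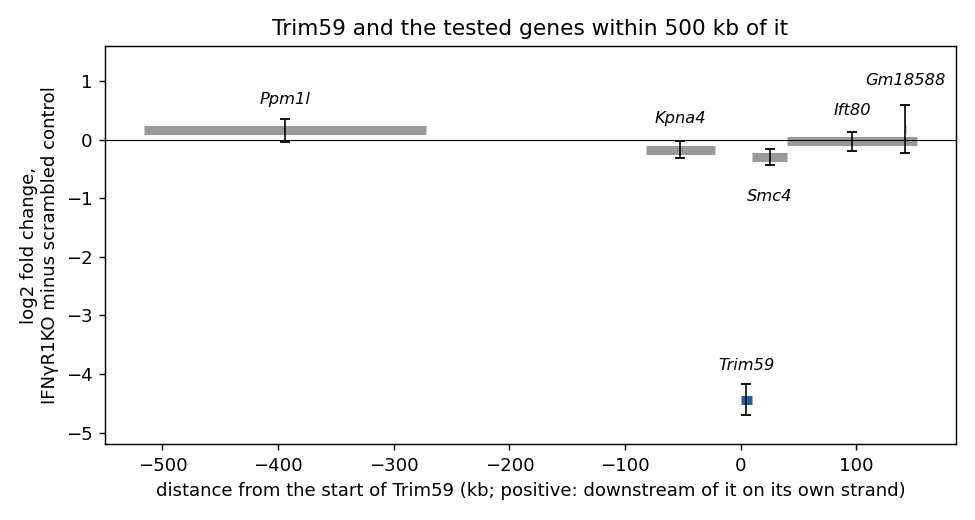
Log2 fold change, IFNγR1KO minus scrambled control, against distance from the start of Trim59 in kb along its own strand, for Trim59 and the 5 tested genes within 500 kb. Each bar spans the gene and the whisker is the standard error. The neighbours lie between -0.30 and 0.18 and Trim59 at -4.44.

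Trim13, the other TRIM gene of the membrane-anchored class, encodes an E3 ligase of the endoplasmic reticulum that takes part in the degradation of misfolded proteins. It had 6.51, 7.46 and 4.64 CPM in scrambled control and 7.81, 7.72 and 5.48 CPM in IFNγR1KO. The groups overlapped, and the log2 fold change was 0.18 (SE 0.24). Of its 50-base stretches 14.2% also occur elsewhere, most of them in the pseudogene Gm9359.

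Among the 7 interferon-inducible TRIM genes the values went both ways. Trim30a was called lower, Trim26 was called higher, 4 were not called and Trim34a was too low to be tested. Of all tested genes 7.62% were called lower and 7.73% higher. The summed level of the 7 genes was 75.6 to 92.0 CPM in scrambled control and 91.9 to 110 CPM in IFNγR1KO, which overlap. The class median was a log2 fold change of 0.28.

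Trim30a encodes a brake on Toll-like receptor signaling that acts on the TAB2 and TAB3 adaptors. The gene (ENSMUSG00000030921.17) lies on the minus strand of chromosome 7 from 104409025 to 104465193, and the ISRE core stands close before its start. It had 49, 48 and 55 counts in scrambled control and 18, 16 and 13 in IFNγR1KO. These are 5.32, 4.78 and 5.31 CPM against 2.56, 2.17 and 1.83 CPM, with every knockout library below every control.

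The means of Trim30a were 5.14 ± 0.313 and 2.18 ± 0.365 CPM (SD, n = 3 each), a ratio of 2.35 and a log2 fold change of -1.23 (SE 0.26). It was called lower in 6 of 6 fits that left out 1 library. Its neighbour Trim30d, 4820 bases away, shares most of the 5.98% of 50-base stretches of Trim30a that occur elsewhere. Reads that lie only in those stretches may be missing from the counts of both genes. Trim30d had 10, 7 and 12 counts against 0, 4 and 4 and did not pass the filter.

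Trim26, an E3 ligase that acts on the antiviral factor IRF3 and its adaptors, differed the other way. The gene (ENSMUSG00000024457.16) lies on the plus strand of chromosome 17 from 36837134 to 36859398. Its levels were 32.1, 36 and 36.5 CPM in scrambled control and 49.0, 55.0 and 54.0 CPM in IFNγR1KO, without overlap. The means were 34.9 ± 2.40 and 52.7 ± 3.20 CPM (SD, n = 3 each), a ratio of 1.51 and a log2 fold change of 0.59 (SE 0.13). It was called higher in 5 of 6 fits that left out 1 library and was not called without replicate 11 of IFNγR1KO, where the log2 fold change was 0.58.

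Trim14, an adaptor without a RING domain that works at the mitochondrial antiviral protein MAVS, had 2.17, 2.09 and 1.45 CPM in scrambled control and 3.27, 2.98 and 4.22 CPM in IFNγR1KO. The groups did not overlap, and with a log2 fold change of 0.87 (SE 0.30) it was not called. Of its exonic length, 38% lies under exons of Nans and 2 other genes on the opposite strand, and the strand setting of the counting is not given in the sources used here. Nans had 115 ± 13.3 CPM in scrambled control and 103 ± 9.54 CPM in IFNγR1KO (SD, n = 3 each), and its part in the value of Trim14 was not tested.

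Trim56, an E3 ligase tied to antiviral DNA and RNA sensing, had 20.4, 16.1 and 25.5 CPM in scrambled control and 23.7, 27.1 and 34.4 CPM in IFNγR1KO. The groups overlapped, with a log2 fold change of 0.46 (SE 0.20). Trim25, the ligase that ubiquitinates RIG-I, had 18.3, 13.0 and 18.8 CPM against 9.23, 15.2 and 13.2 CPM. Here too the groups overlapped, and the log2 fold change was -0.41 (SE 0.22).

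Trim21, a cytosolic antibody receptor that marks antibody-coated virus for the proteasome, carries 2 of the ISRE matches shown above. It had 3.04, 3.38 and 4.06 CPM in scrambled control and 3.98, 5.28 and 1.97 CPM in IFNγR1KO. The knockout libraries lay on both sides of the controls, with a log2 fold change of 0.10 (SE 0.33). Trim34a, of the cluster of antiretroviral TRIM genes on chromosome 7, had 1, 2 and 3 counts against 1, 1 and 3 counts. At most 3 counts, which were worth up to 0.422 CPM, no difference was detectable at this depth. Of the 50-base stretches of Trim34a 39.8% also occur in other transcripts, foremost Trim34b. Exons of Gm47248 on the other strand cover 23.5% of its exonic length. Of the 5 genes with the ISRE core in the promoter, 1 was called lower, 1 was called higher, 2 were not called and 1 was not tested. Of all tested genes 15.3% were called in either direction, and nothing is read from this tally.

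**Figure D3:**
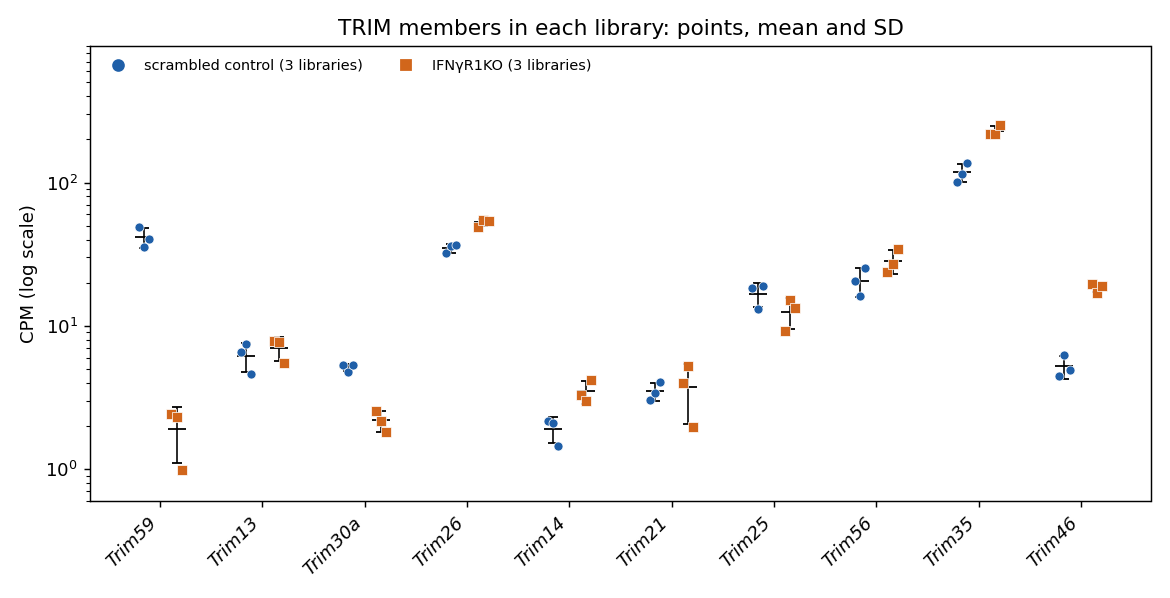
CPM on a log scale in each of the 6 libraries for 10 TRIM genes, with the mean and SD of each group (n = 3) as bars. Trim59 and Trim30a are lower and Trim26, Trim35 and Trim46 higher in every IFNγR1KO library, and the groups of Trim13, Trim21, Trim25 and Trim56 overlap.

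Trim46 had the largest difference upward. Its product bundles microtubules at the axon initial segment of neurons and belongs to the class with a COS domain, which binds microtubules. The gene (ENSMUSG00000042766.17) lies on the minus strand of chromosome 3 from 89234177 to 89246309, the chromosome of Trim59. It had 41, 63 and 51 counts in scrambled control and 137, 126 and 134 in IFNγR1KO.

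In CPM, Trim46 had 4.45, 6.27 and 4.93 against 19.5, 17.1 and 18.8, and every knockout library stood well above every control. The means were 5.22 ± 0.942 and 18.5 ± 1.24 CPM (SD, n = 3 each), a ratio of 3.54 and a log2 fold change of 1.82 (SE 0.19). It was called higher in 6 of 6 fits that left out 1 library and held the 107th highest fold change of the 13642. Of its exons, 6.3% lies under Krtcap2 on the other strand. Krtcap2 had 124 ± 10.4 CPM in scrambled control and 158 ± 18.8 CPM in IFNγR1KO (SD, n = 3 each; log2 fold change 0.34), and its part in the value of Trim46 was not tested.

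The other COS-domain genes were near the limit of counting. Trim9, a ligase of neurons, had 14, 17 and 8 counts in scrambled control and 1, 3 and 7 in IFNγR1KO. Trim36, a microtubule-associated ligase, had 3, 4 and 7 counts against 7, 11 and 5. Neither passed edgeR's filter when every library was used, so that no fold change is given here. DESeq2 tested both and called neither.

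Trim35, a ligase with a PRY-SPRY domain that has been tied to the glycolytic enzyme PKM2, was the gene with the highest level per kb of exon among those called. The gene (ENSMUSG00000022043.19) lies on the plus strand of chromosome 14 from 66297031 to 66311424. It had 936, 1161 and 1407 counts in scrambled control and 1541, 1624 and 1789 in IFNγR1KO, although the knockout libraries were the shallower ones. These are 102, 116 and 136 CPM against 219, 220 and 251 CPM, without overlap. The means were 118 ± 17.3 and 230 ± 18.5 CPM (SD, n = 3 each), a ratio of 1.96 and a log2 fold change of 0.97 (SE 0.15), called higher in 6 of 6 fits that left out 1 library. Just under a log2 fold change of 1, it was not among the genes that pass the study's own rule, which asks for more than 1 in either direction. By that rule Trim46 was higher, where 3.25% of all tested genes were, and Trim59 and Trim30a were lower, where 1.96% were.

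The remaining 12 PRY-SPRY genes outside the interferon-inducible class held 10 that were tested, none of them called. Trim68 was highest among these at a log2 fold change of 0.75 (SE 0.28), with 5.43, 2.69 and 3.87 CPM in scrambled control and 8.38, 6.23 and 5.48 CPM in IFNγR1KO. The lowest knockout value of Trim68 was just above the highest control value. Trim7, which binds the glycogen primer glycogenin, had 5.43, 5.27 and 6.09 CPM against 7.67, 7.99 and 8.15 CPM without overlap, a log2 fold change of 0.50 (SE 0.20). Trim65, a ligase of the RNA sensor MDA5, was lowest of the 10 at -0.52 (SE 0.27), with overlap.

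Trim17, Trim39, Trim41, Trim27 and Trim11 lay between 0.09 and 0.59, and Trim47 and Trim62 at -0.19 and -0.21. Trim41 was the only one of these 7 whose groups did not overlap. The gene bodies of Trim47 and Trim65 overlap on the same strand of chromosome 11, by 8.23% of the exons of Trim47 and 3.82% of those of Trim65, and reads in the shared part cannot be assigned to either. Trim17 shares 17.7% of its 50-base stretches with other transcripts, foremost Hist3h2a. Trim16, which has no RING domain and takes part in the clearance of damaged lysosomes, had between 3 and 18 counts in each library. Trim6, which makes free ubiquitin chains in interferon signaling, had 1 count in 1 control library and 0 in the others, which allows up to 0.290 to 0.426 CPM (3 counts) in a library at 0.

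The 3 chromatin-bound TRIM genes, which have a PHD finger and a bromodomain, were among those with no call. Trim28, also known as KAP1, is the corepressor that KRAB zinc finger proteins bring to endogenous retroviruses. It had 216, 257 and 314 CPM in scrambled control and 201, 224 and 278 CPM in IFNγR1KO, with overlap and a log2 fold change of -0.16 (SE 0.17). Trim33, a ligase that acts on SMAD4 in TGF-β signaling, had 29.2, 26.4 and 39.0 CPM against 28.3, 28.4 and 39.9 CPM (log2 fold change 0.03, SE 0.19). The groups of Trim33 overlapped. Trim24, a reader of histone marks and coregulator of nuclear receptors, had 32.2, 31.6 and 38.2 CPM against 42.3, 38.3 and 43.4 CPM. Its groups were apart by little, with 38.2 CPM as the highest control and 38.3 CPM as the lowest knockout value, and the log2 fold change was 0.28 (SE 0.14).

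The 3 genes with NHL repeats, a propeller-shaped domain that binds RNA or protein, all had a log2 fold change below 0 and none was called. Trim2, a ligase of neurofilament light chain, had 19.0, 20.6 and 22.9 CPM in scrambled control and 15.1, 16.8 and 15.2 CPM in IFNγR1KO, without overlap (log2 fold change -0.41, SE 0.16). Trim3 had 26.4, 29.2 and 28.2 CPM against 24.7, 21.3 and 28.4 CPM, a log2 fold change of -0.17 (SE 0.15). Trim32, whose loss causes a limb-girdle muscular dystrophy, had 20.0, 26.0 and 30.1 CPM against 19.9, 23.0 and 31.1 CPM, a log2 fold change of -0.04 (SE 0.20). Both Trim3 and Trim32 overlapped between the groups.

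Of the 5 genes from other classes, none was called. Trim37, a centrosomal ligase with a MATH domain, had 103, 103 and 136 CPM in scrambled control and 76.4, 85.8 and 100 CPM in IFNγR1KO, without overlap (log2 fold change -0.39, SE 0.16). Trim45, with a filamin-type domain, had 2.82, 3.78 and 3.87 CPM against 6.54, 5.15 and 6.04 CPM, again without overlap and in the other direction (0.75, SE 0.24). Trim44, which has no RING domain, lay at 0.33 (SE 0.16) without overlap. Trim23, which carries an ARF-type GTPase domain, lay at 0.53 (SE 0.19) with overlap, and Trim8, a ligase that acts on SOCS1, at -0.05 (SE 0.18) with overlap.

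Levels of different genes were compared as CPM per kb of annotated exon. In scrambled control Trim28 was highest at 63.1 ± 11.8 CPM per kb (SD, n = 3), then Trim35 at 25.5 ± 3.74, Trim44 at 18.5 ± 1.80 and Trim37 at 15.9 ± 2.63. Trim28 and Trim35 stood apart from the next gene in every library, whereas Trim44 and Trim37 overlapped. Trim59 came 6th with 12.4 ± 1.95 CPM per kb, in a run from Trim27 through Trim8 to Trim41 in which each gene overlapped its neighbour.

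In IFNγR1KO cells Trim59 was 28th of the 36 genes with 0.567 ± 0.237 CPM per kb (SD, n = 3). Trim46 went from the 21st to the 13th place, at 1.38 ± 0.248 and 4.87 ± 0.327 CPM per kb. Trim30a went from the 22nd to the 31st place, at 1.25 ± 0.0760 and 0.531 ± 0.0888. Trim28 and Trim35 were first and second in both groups.

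Summed over the 36 genes, the level was 1068, 1109 and 1296 CPM in scrambled control and 1165, 1212 and 1421 CPM in IFNγR1KO, which overlap. Trim59 made up 3.12% to 4.55% of that sum in scrambled control and 0.0693% to 0.207% in IFNγR1KO. Trim35 made up 9.51% to 10.5% and 17.7% to 18.8%. The share of Trim28 was 20.2% to 24.2% in scrambled control and 17.3% to 19.6% in IFNγR1KO.

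**Figure D4:**
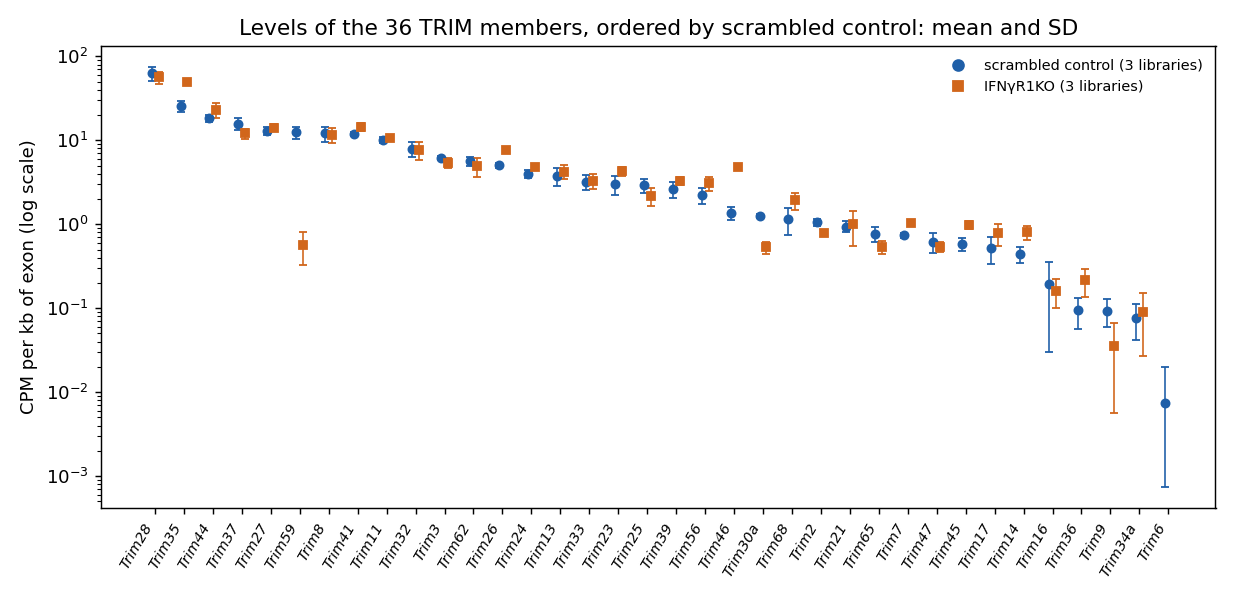
Mean CPM per kb of exon on a log scale, with SD (n = 3), of the 36 TRIM genes in both groups, in the order of scrambled control. Trim59 drops from 12.4 to 0.567 CPM per kb; Trim6 is at 0 in IFNγR1KO and not drawn there, and its SD in scrambled control is larger than its mean, so that its lower bar is cut short.

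By position, 9 of the 36 genes lie on chromosome 11, 7 on chromosome 7, 5 on chromosome 3 and 3 on chromosome 4. Of the neighbours among the 36 that lie within 500 kb of each other, no pair was called together. Trim41 and Trim7, 8786 bases apart, and Trim17 and Trim11, 4994 bases apart, were all without a call. Trim26 and Trim10, a PRY-SPRY gene known from red blood cell development, lie 10175 bases apart on chromosome 17 and differed in opposite directions. Trim10 had 17, 20 and 16 counts in scrambled control and 1, 1 and 0 in IFNγR1KO. With no knockout library above 3 counts the difference is a bound, and Trim10 was at least 4.29-fold lower, taking 3 counts per library as the floor (adjusted p = 0.00118, edgeR's quasi-likelihood test).

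Trim10 is one of the other 36 TRIM genes, of which 9 were tested, 3 were called higher and 2 lower. Of all tested genes 7.73% were called higher and 7.62% lower. Their median log2 fold change was -0.09. Pml, which builds the PML nuclear bodies and is a textbook interferon target, had the highest level per kb of exon of those called. It had 377, 416 and 435 counts in scrambled control and 106, 139 and 172 in IFNγR1KO. These are 40.9, 41.4 and 42.0 CPM against 15.1, 18.8 and 24.2 CPM, without overlap, a log2 fold change of -1.10 (SE 0.17, adjusted p = 0.00132), and the call was made in 6 of 6 fits that left out 1 library.

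The 3 genes called higher were Mid1 and Mid2, which encode microtubule-bound ligases of the COS class, and Trim50. Mid1 had 1.30, 1.49 and 0.870 CPM in scrambled control and 5.82, 3.79 and 3.37 CPM in IFNγR1KO, a log2 fold change of 1.82 (SE 0.34, adjusted p = 0.00369). The value of Mid1 is uncertain, since 15% of its 50-base stretches occur elsewhere, most of them in its pseudogene copy, and 17.9% of its exons lie under genes of the other strand. Mid2 had 8.58, 8.76 and 11.9 CPM against 16.6, 14.2 and 16.4 CPM, a log2 fold change of 0.69 (SE 0.19, adjusted p = 0.0265), and was called in 2 of 6 fits that left out 1 library, without scrambled control replicate 3 and without IFNγR1KO replicate 12. With any other library left out Mid2 was not called, and over the 6 fits its log2 fold change ran from 0.61 to 0.86 and its adjusted p reached 0.103. Trim50 had 4 counts in each control library and 11, 15 and 11 in IFNγR1KO, a log2 fold change of 2.04 (SE 0.42, adjusted p = 0.00635).

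Trim71, an NHL-repeat gene of stem cells, had 4.56, 3.48 and 4.25 CPM in scrambled control and 0.994, 2.84 and 2.25 CPM in IFNγR1KO. The groups of Trim71 did not overlap, and it was not called (log2 fold change -1.0, SE 0.34, adjusted p = 0.0660). Trim63, a ligase known from muscle wasting, had the highest level per kb of exon of the 9 and lay at -0.09 (SE 0.15, adjusted p = 0.734), with 42.9, 57.0 and 51.4 CPM against 44.8, 45.5 and 51.7 CPM. Of the relatives of Trim30a and Trim34a on chromosome 7, Trim12a had 1.74, 1.29 and 1.93 CPM against 1.42, 2.03 and 2.11 CPM (log2 fold change 0.16, SE 0.34, adjusted p = 0.801). Trim67, a neuronal COS gene, lay at -0.18 (SE 0.30, adjusted p = 0.751).

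**Figure D5:**
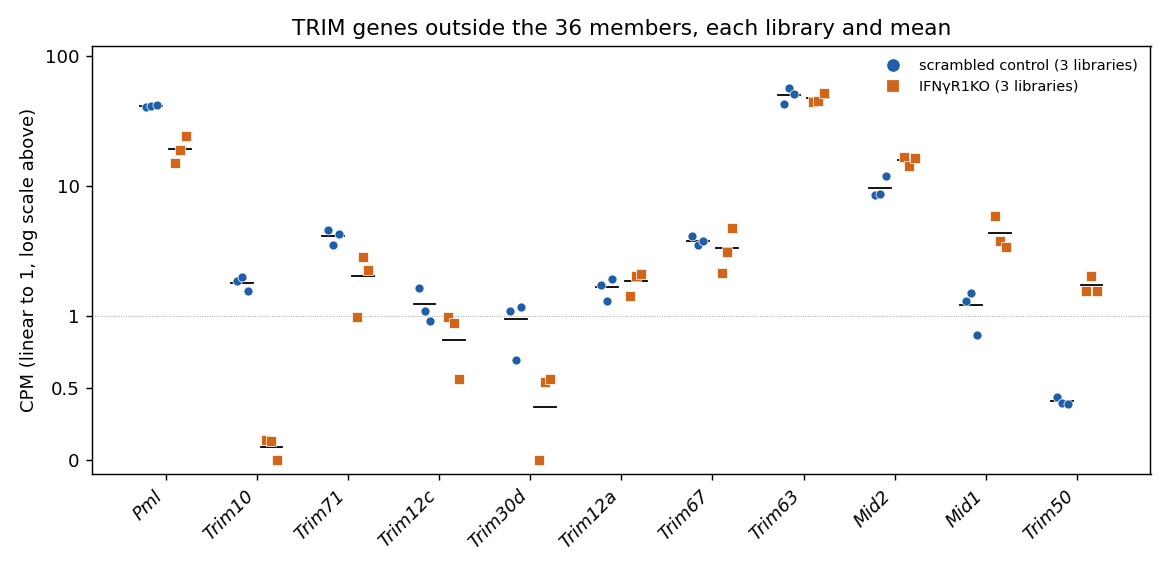
CPM in each library for 11 TRIM genes outside the set of 36, on a scale that is linear to 1 and logarithmic above, with the group mean (n = 3) as a line. Pml and Trim10 are lower and Mid1, Mid2 and Trim50 higher in every IFNγR1KO library; Trim12c and Trim30d were below the filter and were not tested.

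Genes that work with the TRIM proteins were read from lists, 5 in all. The counts of each list stand beside 7.73% of all tested genes called higher and 7.62% called lower. Of 12 interferon-responsive reference genes 10 were tested, 5 were called lower and none higher, with a median log2 fold change of -0.80. Gbp2, a guanylate-binding protein of interferon gamma defense, had 28.2, 22.2 and 20.7 CPM in scrambled control and 4.26, 5.69 and 8.15 CPM in IFNγR1KO (log2 fold change -1.97, SE 0.23, adjusted p = 0.000206). Gbp4, its relative, had 65, 62 and 55 counts against 0, 0 and 5 (log2 fold change -4.65, SE 0.58, adjusted p = 0.000312). Psmb8, an immunoproteasome subunit, had 5.75, 6.17 and 5.89 CPM against 0.852, 0.542 and 1.41 CPM (log2 fold change -2.66, SE 0.33, adjusted p = 0.000289), and 14.7% of its exons lie under a gene of the other strand.

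Gbp3 was lower with a log2 fold change of -1.69 (SE 0.35, adjusted p = 0.00652). Irf1, a transcription factor that binds ISRE-like sites, was lower as well, with a log2 fold change of -0.59 (SE 0.15, adjusted p = 0.0203) and a call in 3 of 6 fits that left out 1 library. Without scrambled control replicate 2 or IFNγR1KO replicate 10 or 11 Irf1 was not called, and over the 6 fits its log2 fold change ran from -0.67 to -0.51 and its adjusted p reached 0.109. Set beside these, the interferon-inducible TRIM class had 1 gene called lower, Trim30a, and 1 called higher, Trim26. Pml, an interferon target outside that class, was called lower (log2 fold change -1.10), so this tally depends on which genes the class holds. Whether the lists differ from one another was not tested.

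ISG15 is a ubiquitin-like protein that is attached to targets by the E1 enzyme Uba7, the E2 enzyme Ube2l6 and, in mice, the E3 ligase Herc6. Its own gene and its enzymes went apart, with 1 of the 5 genes called higher and 2 lower, and a median log2 fold change of 0.29. Isg15 had 5.97, 6.96 and 4.54 CPM in scrambled control and 16.8, 12.1 and 13.9 CPM in IFNγR1KO, a log2 fold change of 1.29 (SE 0.22, adjusted p = 0.00197). Herc6 had 13.4, 13.1 and 15.3 CPM against 7.81, 6.91 and 9.56 CPM, a log2 fold change of -0.78 (SE 0.19, adjusted p = 0.0153), called in 4 of 6 fits that left out 1 library and not without IFNγR1KO replicate 10 or 11. Over the 6 fits the log2 fold change of Herc6 ran from -0.92 to -0.66 and its adjusted p reached 0.0948. Of the exons of Herc6, 13.7% is shared with Gm45193 on the same strand.

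Ube2l6 had 19.9, 22.1 and 15.6 CPM in scrambled control and 13.5, 12.5 and 12.7 CPM in IFNγR1KO, a log2 fold change of -0.57 (SE 0.18, adjusted p = 0.0459). Of the 6 fits that left out 1 library, only that without scrambled control replicate 3 called Ube2l6, with log2 fold changes from -0.71 to -0.46 and an adjusted p of up to 0.172, and DESeq2 did not call it. Uba7 and the ISG15 protease gene Usp18 were not called, with log2 fold changes of 0.29 (SE 0.28, adjusted p = 0.552) and 0.53 (SE 0.41, adjusted p = 0.438).

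In the list of genes for ubiquitin and the E1 and E2 enzymes that charge it, none was called higher, and the 16 tested genes reported here were not called.

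In the list of the RIG-I and DNA sensing pathway, where Trim25, Trim14, Trim26 and Trim56 act, 15 of 16 genes were tested and 1 was called lower, with a median log2 fold change of 0.04. This was Cgas, the enzyme that senses cytosolic DNA, with 13.9, 13.8 and 16.3 CPM in scrambled control and 6.39, 6.91 and 8.86 CPM in IFNγR1KO (log2 fold change -0.99, SE 0.19, adjusted p = 0.00464). Ddx58, which encodes RIG-I, lay at 0.36 (SE 0.29, adjusted p = 0.460), and Mavs at -0.08 (SE 0.19, adjusted p = 0.835), both with overlap.

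Of 13 genes whose products work with TRIM28 in heterochromatin, all were tested and 2 were called lower, with a median log2 fold change of -0.11. Both encode HP1 proteins, which bind methylated histone H3 and TRIM28. Cbx3 had 149, 139 and 179 CPM in scrambled control and 99.9, 110 and 101 CPM in IFNγR1KO (log2 fold change -0.59, SE 0.14, adjusted p = 0.0147). Cbx1 had 111, 96.4 and 99.5 CPM against 66.5, 76.1 and 72.5 CPM (log2 fold change -0.51, SE 0.13, adjusted p = 0.0202). Neither was called without IFNγR1KO replicate 10 or 11, nor Cbx1 without scrambled control replicate 1. Over the 6 fits that left out 1 library the adjusted p of Cbx3 reached 0.0715 and that of Cbx1 0.109, with log2 fold changes from -0.66 to -0.47 and from -0.56 to -0.45. Cbx5, which also encodes an HP1 protein, was lower without overlap and was not called by edgeR's quasi-likelihood test (log2 fold change -0.43, SE 0.15, adjusted p = 0.0660). DESeq2's Wald test called Cbx5 lower (adjusted p = 0.0418). The methyltransferase gene Setdb1 lay at -0.10 (SE 0.14, adjusted p = 0.712 in edgeR's test).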

How the data were processed

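RNA of B16 cells was measured by poly(A) RNA-seq in 3 scrambled control and 3 IFNγR1KO cultures. Reads were paired-end. STAR 2.7.5a placed them on GRCm38, and the authors deposited, for each library, the unnormalized number of reads (raw counts) that htseq-count of HTSeq 0.11.2 gave to each gene. The submitters' processing notes also name DESeq2 1.34.0. The annotation release and strand setting of the counting are not given in the sources used here. Of all reads listed, 46.0% to 47.0% were on genes and 46.9% to 47.7% on no feature, and rows that name no gene were left out.

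Counts were compared in R 4.3.3 with edgeR 4.0.16: filterByExpr with a minimum count of 10 and a minimum total of 15, TMM, the quasi-likelihood test and Benjamini-Hochberg adjustment over all 13642 genes tested. The standard error is the fold change divided by the square root of F. Symbols, positions and exonic length came from GENCODE M21, which holds 55154 of 55335 identifiers, and the symbol Mb21d1 was matched through RefSeq to Cgas. Replicates of a group differed beyond sampling noise (chi-square per degree of freedom 2.62 to 22.7) and each was counted as 1 sample. The value was 9.25 between scrambled control replicates 1 and 2, and 22.7 and 20.4 between these and replicate 3. It was 2.62 between IFNγR1KO replicates 10 and 11, and 18.45 and 15.0 between these and replicate 12. The alternatives were DESeq2 1.42.0, other normalizations, filters and thresholds, thinned counts and leaving out each library.

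Counts of this comparison were also simulated, and 13456 genes were tested. Of 100 genes changed by 1 on the log2 scale edgeR recovered 96%, and of 100 changed by 2 it recovered 100%. There were 9 unchanged genes among 205 calls. The changed genes were drawn only from genes above a minimum mean level, and the spread of each gene was set from its mean level. The shares therefore say nothing about genes below that level, among them Trim30a, Trim14 and Trim21.

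The 36 genes, the lists of partner genes, the markers and the rule for naming genes were chosen with earlier results of these data known. All 36 genes are named by class, with all library values for Trim59, the interferon-inducible, membrane-anchored, PHD-bromodomain and NHL classes and every gene called. Of the other lists, the called genes were named, at most 4 per list and direction by adjusted p; the others named there were chosen after their values were seen. Protein sequences were not used here, and 2 genes of the partner lists are not reported here. Floors cover counting error only, while the SDs and standard errors also hold the spread between cultures.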

Additional observations from a re-analysis of the deposited data

How the results depend on the processing

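The calls of Trim59, Trim30a, Trim46 and Trim35 and the direction of Trim26 held under every alternative test, normalization, filter, thinning and left-out library, apart from Trim35 under the study's rule. With 1 library left out, 2 to 5 of the 36 genes were called higher and 2 to 4 lower. The count of 5 arose without scrambled control replicate 1 and without IFNγR1KO replicate 12 (Trim23 and Trim68 added in both), and the count of 4 without IFNγR1KO replicate 12 (Trim9 and Trim37 added). The study's rule left 1 gene called higher. In the other TRIM genes, thinning to the smallest total left 1 called lower, since Trim10 then fell below the filter. The partner lists together had 11 genes called lower. This became 6 to 13 with 1 library left out (6 without IFNγR1KO replicate 10 or replicate 11), 6 at an adjusted p under 0.01 and 4 under the study's rule. With no filter on low counts the partner lists had 16 genes called lower. Over all genes, leaving out scrambled control replicate 2 or IFNγR1KO replicate 10 or 11 left 535 to 571 called higher and 457 to 552 lower. Leaving out IFNγR1KO replicate 12 raised the calls over all genes to 1372 higher and 1452 lower. The adjusted p under 0.01 left 454 and 417. The sign turned for 4 of the 31 genes, none of them called. With 1 library left out, Trim21 ran from -0.22 (without IFNγR1KO replicate 11) to 0.40. Trim33 went to -0.00 with no filter, to -0.01 with thinned counts and ran from -0.16 to 0.21 with 1 library left out. Trim32 then ran from -0.25 to 0.10 and Trim8 from -0.21 to 0.12. The cause was not tested. The labels give no pairing, and the groups share no replicate number (1, 2 and 3 against 10, 11 and 12). No paired analysis was made. For some genes scrambled control replicate 3 and IFNγR1KO replicate 12 stood apart from their groups in the same direction. Chd4, from the TRIM28 list, had 341, 359 and 521 CPM in scrambled control and 337, 361 and 553 CPM in IFNγR1KO. The unpaired fit counts such a shared shift as spread, and its source was not tested. Depth limits what can be said of Trim6, Trim9, Trim16, Trim34a and Trim36, and 1 count weighs more in the shallower IFNγR1KO libraries.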
